A study of Mus musculus with 4 samples.

Results

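The Sall genes encode 4 related zinc finger transcription factors, SALL1 to SALL4, and their loci were followed through the accessible chromatin of mouse embryonic stem cells in LIF medium and of such cells after 5 days in neural differentiation medium. A locus was taken as the gene body of Sall1, Sall2, Sall3 or Sall4 with 50 kb on each side. Every accessible region (peak) that touched such a window was assigned to the library that listed it. Peaks of the 4 libraries that overlapped by at least 1 bp were then joined into regions, which gave 125 regions at the Sall loci of 328597 in the genome. Sall4 held 38 of them, Sall1 35, Sall3 30 and Sall2 22.

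Spalt-like proteins bind DNA through pairs of C2H2 zinc fingers, and in most family members a short motif at the N terminus recruits the NuRD co-repressor, a complex that combines histone deacetylases with a chromatin remodeller. SALL4 is part of the pluripotency network of embryonic stem cells, where it acts beside OCT4, SOX2 and NANOG, and it is switched off in most adult tissues. SALL1 is also present in stem cells and is needed for kidney development, while SALL2 and SALL3 are best known from the nervous system and from developing limbs and sense organs.

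The cells were mouse embryonic stem cells derived from blastocysts, either wild type or Cdc14ab KO, in which both Cdc14a and Cdc14b, genes of phosphatases that oppose cyclin-dependent kinases, are knocked out. Each genotype was sampled at day 0, in ESC medium containing LIF, and at day 5, after LIF medium had been exchanged for N2B27 supplemented with EGF and FGF2. All 4 groups share culture on feeder cells, their removal by plating at low density on gelatin, removal of dead cells, a DNase I treatment and the label "clone 3", so each genotype is represented by 1 clone number. Accessibility came from ATAC-seq of single nuclei, where a transposase inserts into open chromatin, and each group held 1 library. No difference below therefore has a replicate check, and no test between groups was possible. Where 4 values follow one another they stand for wild type and its knockout on day 0, followed by the same pair on day 5. Because the peaks pool all nuclei of a library, a site open in fewer nuclei and a site less open in each nucleus cannot be told apart.

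The lists held 189571 to 227878 peaks and covered 162.5 to 197.3 Mb, and their read depth is unknown. The wild-type day 5 list was the shortest, and it stood apart in another way: 3 of 3 Y-linked genes examined (Eif2s3y, Uty and Ddx3y, chosen after their values were seen) had a peak at a gene end there, against 0 of 3 in each other library. Peaks on the Y chromosome as a whole were listed in every library, 16, 16, 20 and 14 of them. Whether the wild-type libraries of day 0 and day 5 come from the same line was not tested, so their time course may set time and line side by side, and these cannot be told apart. Comparisons of the Sall loci that do not use this library are the knockout against wild type at day 0 and the time course of the knockout. Of 8 markers of pluripotent stem cells, all 8 had a peak within 1 kb of a start in every library, day 5 included, and so did all 7 neural progenitor markers. Such a peak was also listed at 73.6%, 74.6%, 73.4% and 75.2% of all protein-coding genes. It was listed at 3 of 3 trophoblast markers in every library, and at 3, 3, 3 and 4 of 4 endoderm markers. A start peak alone therefore does not mark a cell type. The pluripotency marker loci summed to 199.3, 212.4, 147.5 and 200.2 kb of peaks, lowest in wild type at day 5 as at the Sall loci, and those of neural progenitors to 98.5, 101.1, 103.0 and 108.0 kb. Among 8 fibroblast markers, which would mark leftover feeders, start peaks were listed at 6 in wild type (not at Col3a1 and Lum) and at 7 in the knockout (not at Lum) at day 0 and at 8 in both day 5 libraries, and their loci summed to 78.2, 95.6, 94.8 and 90.3 kb of peaks. The part of feeder cells, of pluripotent cells, of list length and of the Y-linked signal in the values below was not tested.

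Sall1 lies on chromosome 8 (mm10, 89027242 to 89044162), Sall2 on chromosome 14 (52311177 to 52328670) and Sall4 on chromosome 2 (168748332 to 168767201). The promoter table from RefSeq (GRCm38.p6, the assembly of mm10) matched 2 of the 4 members, with 3 starts for Sall1 and 2 for Sall2, all on the minus strand. At Sall2 the starts differed in whether a peak covered them, so the 250 bases that precede each are printed 5′ to 3′ with CpG dinucleotides in capitals. The outer Sall2 start, at 52328670, follows chr14:52328671-52328920 and the inner one, at 52316323, follows chr14:52316324-52316573. The outermost Sall1 start, at 89044162, is shown for comparison with chr8:89044163-89044412.

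Sall2 outer: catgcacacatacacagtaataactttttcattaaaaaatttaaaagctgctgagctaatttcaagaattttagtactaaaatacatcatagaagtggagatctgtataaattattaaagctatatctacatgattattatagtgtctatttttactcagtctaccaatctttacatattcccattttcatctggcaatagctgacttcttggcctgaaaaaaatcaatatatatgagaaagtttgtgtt

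Sall2 inner: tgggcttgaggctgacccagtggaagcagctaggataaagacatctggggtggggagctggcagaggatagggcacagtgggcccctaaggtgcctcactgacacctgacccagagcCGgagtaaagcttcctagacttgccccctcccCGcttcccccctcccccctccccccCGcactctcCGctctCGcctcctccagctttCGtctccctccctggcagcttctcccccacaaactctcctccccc

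Sall1 outermost: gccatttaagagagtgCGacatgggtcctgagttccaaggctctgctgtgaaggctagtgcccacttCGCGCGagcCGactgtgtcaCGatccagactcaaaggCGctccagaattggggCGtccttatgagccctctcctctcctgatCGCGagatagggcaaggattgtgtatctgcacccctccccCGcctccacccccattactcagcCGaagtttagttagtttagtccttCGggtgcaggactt

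At Sall2, only the inner of the 2 annotated starts lay inside a peak. The bases before the outer start held 0 CpG and 28.0% G and C, those before the inner start 6 CpG and 64.4%, against medians of 10 CpG and 55.6% over the 21263 annotated promoters. The inner start was inside a peak in all 4 libraries, with widths of 803, 824, 829 and 842 bp. The outer start was inside none, and the nearest peak ended 633, 559, 189 and 549 bp away. Over all annotated starts, the start base was inside a peak in 63.8%, 64.6%, 64.7% and 65.4% of cases. It was so in all 4 lists for 14.4% of starts with 0 to 4 CpG before them and for 72.5% of those with 5 to 14.

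Of the 3 Sall1 starts, the inner ones lay inside peaks and the outermost did not. The outermost start was inside no peak in any library, with 13 CpG in the 250 bases before it, while the others, at 89043512 and 89042862, were inside peaks in all 4 libraries and followed 25 and 30 CpG. With 5 to 14 CpG before the start, the class of the outermost one, 72.5% of all annotated starts were inside a peak in all 4 lists. The outermost start thus differed from most of its class. With 15 or more CpG the share was 90.8%. The last 30 bases before each inner start, at chr8:89043513-89043542 and chr8:89042863-89042892, show how dense the CpG sites (capitals) are there. The first G of the innermost stretch completes a CpG that begins 1 base before it.

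Sall1 middle: cttatcccaCGggctCGgggCGcttctccc

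Sall1 innermost: GagCGgggggCGcCGgcCGgggCGctgggc

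The accessible stretch at the Sall1 starts was longer at day 5 than at day 0 in both genotypes. Around the outermost start, within 1 kb on either side, peaks covered 644 and 691 bp at day 0 against 1067 and 1212 bp at day 5. A separate peak just upstream accounted for most of this difference. It was listed only at day 5, as 89044860 to 89045652 (wild type) and 89044726 to 89045628 (knockout), so both day 5 libraries differed from both day 0 libraries in the same direction. The peak over the innermost start was 485 and 574 bp wide at day 0 and 720 and 729 bp wide at day 5 (wild type, then knockout).

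Sall3 lies on chromosome 18 (80966989 to 80987021). It and Sall4 each had a single peak over the high-coordinate end of the gene in every library. The end was chosen because it was the more accessible one, and its strand was not given in the sources used here. At Sall4 this peak was 828, 837, 888 and 871 bp wide, and the day 0 peaks shared their first base, 168766756, and ended at 168767583 (wild type) and 168767592 (knockout). At Sall3 the widths were 792, 863, 899 and 895 bp. All 4 members thus had a peak within 1 kb of a start or accessible end in each library, as did 73.6%, 74.6%, 73.4% and 75.2% of the 21887 protein-coding genes. At Sall3 and Sall4 the choice of end favoured a peak in advance. Of all genes, 79.9% had an annotated start instead, so the count and these shares are not fully alike.

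Words for known binding sites were searched on both strands of the 250 bases before each Sall1 and Sall2 start. None of the 5 stretches held AATATT, a short A/T-rich word of the kind that SALL4 zinc fingers prefer, which 5.55% of all promoters held. None held the octamer ATTTGCAT of POU factors (1.58% of promoters) or the SOX word CATTGT (9.35%). GGGCGG, the GC box, occurred 4 times before the middle Sall1 start and 1 time before the innermost, and in 42.6% of all promoters. These matches describe letters only. No word contains another, and AATATT reads the same on both strands.

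Among the 4 loci Sall4 was the most densely accessible, and Sall2 the least except in wild type at day 5, where Sall3 was. Per 100 kb of window, Sall4 had 29.4, 28.6, 19.3 and 26.9 peaks. Sall1 followed with 23.9, 24.8, 18.0 and 22.2. Sall3 had 17.5, 19.2, 11.7 and 17.5, and Sall2 14.5, 13.6, 12.8 and 16.2. The median gene had 14.2, 15.7, 11.8 and 15, so Sall2 and, at wild-type day 5, Sall3 were close to a typical gene. A lower density than that of Sall4 was found for 97.8, 95.9, 88.5 and 96.3% of genes.

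**Figure D1:**
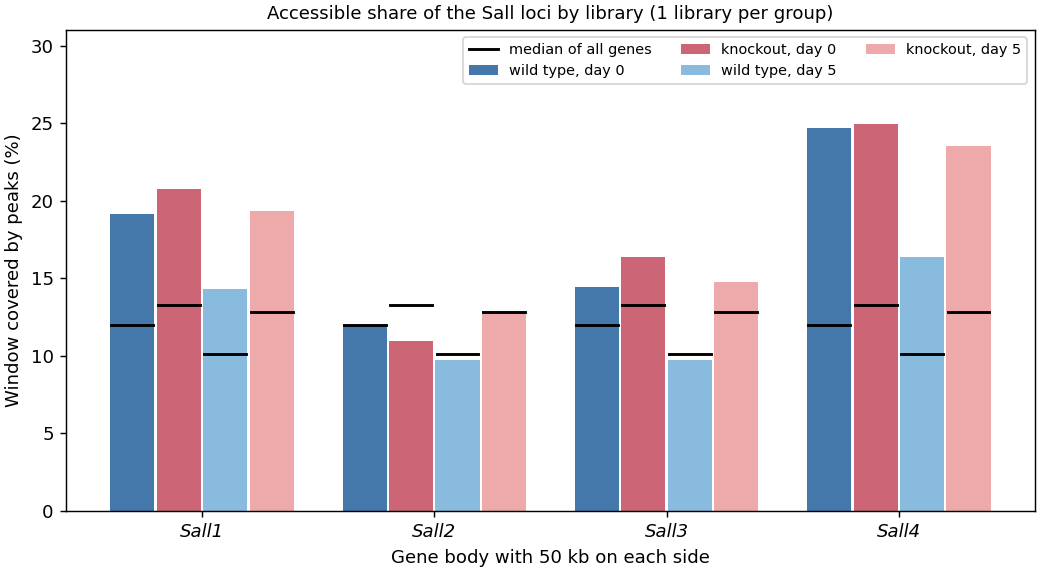
Share of each Sall window (gene body with 50 kb on each side) covered by peaks, in percent, by library. Bars are single libraries without an error, and black lines give the median over all protein-coding genes in the same library; in every library Sall4 is highest, and wild type at day 5 is the lowest library for each gene.

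Sall4 peaks covered 29370, 29661, 19489 and 27956 bp. Sall1 peaks covered 22355, 24266, 16718 and 22646 bp. Sall3 peaks covered 17293, 19664, 11655 and 17688 bp, and Sall2 peaks 14054, 12893, 11436 and 15148 bp. At each locus the wild-type day 5 library was the lowest of the 4, and at Sall1, Sall3 and Sall4 the other three lay closer to one another than to it. In that library 23 peaks were listed at Sall4, 21 at Sall1, 15 at Sall2 and 14 at Sall3, against 32, 26, 19 and 21 in the knockout at day 5.

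Much of the Sall4 signal lay in its neighbour Atp9a, which encodes a membrane lipid transporter. The window of Sall4 overlaps Atp9a, and 18 of the 38 regions touched that gene, while 5 lay in the Sall4 body and 13 beyond its high-coordinate end. At Sall2, 10 of 22 regions touched neighbouring genes, namely Rab2b, Tox4 or Mettl3, which encodes the catalytic subunit of the RNA m6A methyltransferase. The olfactory receptor genes Olfr1513 and Olfr1512 also lie in this window, and no region touched them. At Sall3, 3 of 30 regions touched Atp9b, a relative of Atp9a. No other protein-coding gene overlaps the Sall1 window, where 19 regions lay beyond the low-coordinate end, 11 beyond the high-coordinate end and 5 in the gene.

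**Figure D2:**
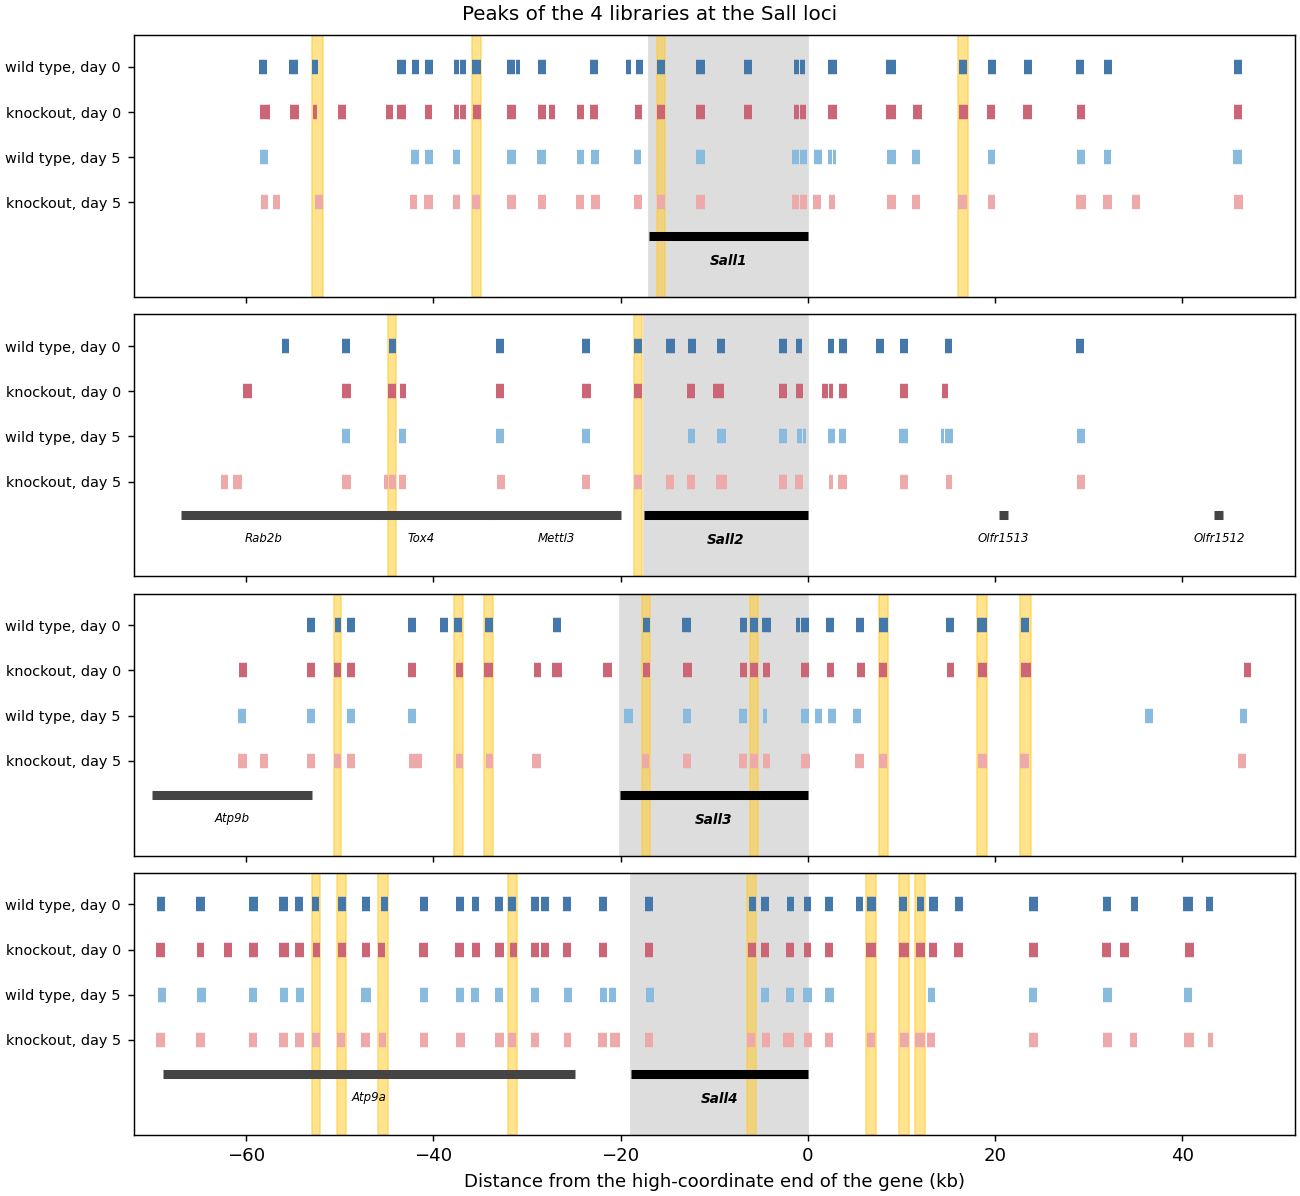
Peaks of each library (coloured blocks, 1 row per library) at the 4 Sall loci, with distance from the high-coordinate gene end in kb on the x axis. Grey shading and the black bar mark the Sall gene, dark grey bars neighbouring protein-coding genes, and yellow bands the regions listed in every library except wild type at day 5, which number 4 at Sall1, 2 at Sall2, 8 at Sall3 and 8 at Sall4.

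To compare libraries of unequal length, the log2 ratio of covered bp at each locus was set against the median ratio of the 20806 protein-coding loci with any covered base. These medians were 0.11 for the knockout against wild type at day 0, 0.31 at day 5, -0.22 for day 5 against day 0 in wild type and -0.03 in the knockout. A locus was counted as past the fold when it differed from the median locus by at least 1.5-fold. Each library enters 2 of these comparisons, so they are not independent of one another.

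In LIF medium all 4 Sall loci of the knockout stayed within 1.5-fold of those in wild type, relative to the median locus. The centred log2 ratio was 0.01 at Sall1, 0.07 at Sall3, -0.09 at Sall4 and -0.23 at Sall2. No member was past the fold, where 4.60% of all loci were higher and 3.05% lower. The Sall2 value lay above that of 13.9% of genes and those of the other members above 33.0 to 62.2%. The positive values turned under some alternatives, to as low as -0.06 at Sall1 and -0.14 at Sall3. The ratio of peak numbers at Sall2, 16 in the knockout against 17 in wild type, had an exact 95% binomial interval of -1.26 to 0.89 after centring (counting error only).

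At day 5 the knockout ratio of all 4 Sall loci was above that of the median locus, in each case by less than 1.5-fold. The values were 0.28 at Sall3, 0.20 at Sall4, 0.12 at Sall1 and 0.08 at Sall2. Past the fold were 7.92% of all loci (higher) and 4.23% (lower), and 0 members. Between 61.2 and 79.8% of genes had lower values than the members, so the members lay in the upper part of the usual range. The sign turned at Sall1 with windows of 10 kb (-0.04), and at Sall2 without the bases of neighbouring genes (-0.15) or with lists of equal length (-0.08). All 4 intervals from peak numbers included 0, for example -0.76 to 1.38 at Sall3.

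In the wild-type time course from day 0 to day 5 all 4 loci lay below the median locus, by less than 1.5-fold. The centred log2 ratio was -0.36 at Sall4, -0.33 at Sall3, -0.19 at Sall1 and -0.06 at Sall2. No member was past the fold, against 10.0% of loci higher and 6.28% lower. Values lower than that of Sall4 were found for 15.3% of genes and lower than that of Sall3 for 16.9%. The sign turned at Sall1 with windows of 10 kb (0.06), and at Sall2 with windows of 100 kb or by peak numbers (0.07 in each case). Without the wild-type day 5 library no value of this comparison exists.

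In the knockout the same time course left Sall1, Sall3 and Sall4 near the median locus. Their values were -0.07, -0.12 and -0.06, while Sall2 stood at 0.25, above 79.5% of genes. Past the fold were 7.66% of all loci (higher), 2.46% (lower) and no member. The sign of the 3 negative values was not stable: over 11 alternatives they reached 0.04 at Sall1, 0.16 at Sall3 and 0.12 at Sall4. The knockout time course minus the wild-type one was 0.32 at Sall2, 0.30 at Sall4, 0.21 at Sall3 and 0.12 at Sall1, beside 9.34% of loci higher by at least 1.5-fold and 8.25% lower, and 0 members either way. This sign turned with windows of 10 kb at Sall3 (-0.10) and at Sall1 (-0.01), and at Sall1 also with lists of equal length (-0.01). In all of the 16 comparisons of single members, the interval from peak numbers included 0. That interval takes the peaks of both lists as separate draws, though many were the same sites. At Sall4, for example, 22 of 23 wild-type day 5 peaks overlapped a day 0 peak, and 22 of 35 day 0 peaks the reverse. With so few peaks it is wide, so including 0 does not show that a locus was unchanged.

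**Figure D3:**
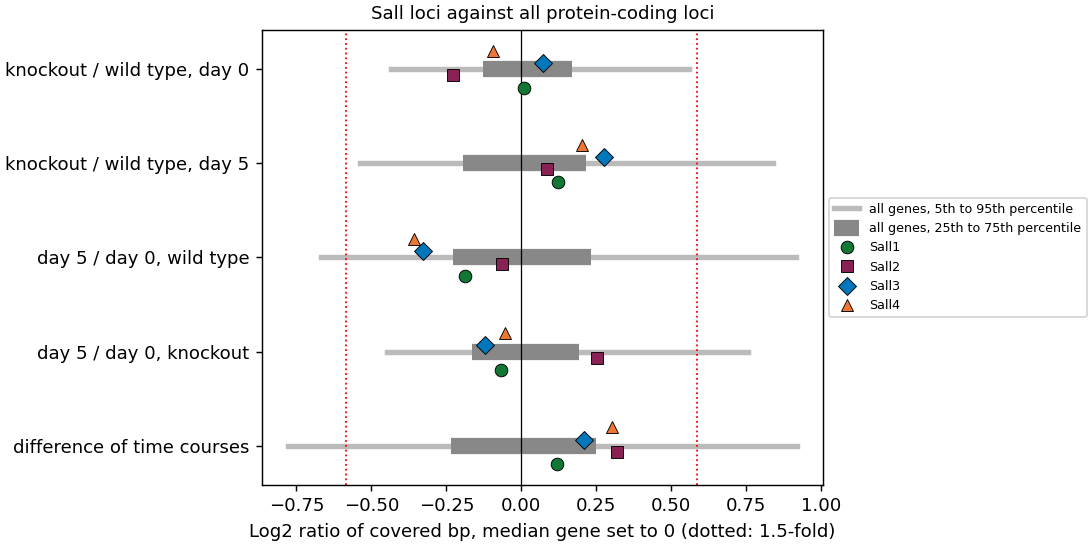
Log2 ratio of covered bp at each Sall locus (symbols) for the 4 comparisons and for the difference of time courses, with the median protein-coding locus set to 0. Thick and thin grey bars span the 25th to 75th and 5th to 95th percentiles of all loci, dotted lines mark 1.5-fold, and no Sall locus reaches them; at day 5 all 4 symbols lie above 0 for the knockout against wild type.

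The region map showed which sites lay behind these sums. Of the 125 regions, 55 were listed in all 4 libraries (44.0%, exact 95% interval 35.1 to 53.2), against 36.0% of the regions within 50 kb of any protein-coding gene, which the interval includes. By member the count was 21 of 38 at Sall4, 15 of 35 at Sall1, 11 of 22 at Sall2 and 8 of 30 at Sall3. A further 24 were listed in a single library, namely 7, 7, 3 and 7. The background share of such regions was 30.1%. Day 0 alone, in both genotypes, accounted for 8 regions (6.40%, background 6.01%) and day 5 alone for 2 (1.6%, background 4.48%). The knockout alone listed 1 on both days (0.80%, background 3.66%), and 22 were in every list but that of wild type at day 5 (17.6%, background 9.11%).

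The day 0 regions of the Sall loci were listed again at day 5 more often in the knockout than in wild type, as were those of other genes. Both day 0 libraries listed 87 regions, of which wild type listed 57 at day 5 (65.5%, 54.6 to 75.4) and the knockout 77 (88.5%, 79.9 to 94.3). For regions near any protein-coding gene the shares were 71.4 and 85.2%. At the Sall loci 22 of the 87 were kept by the knockout alone (25.3%, 16.6 to 35.7) and 2 by wild type alone (2.30%), where the background was 17.2 and 3.42%. The interval of the first share includes its background, and each of these counts rests on the wild-type day 5 library. With each list reduced to its 189571 widest peaks, wild type kept 65.8% of the Sall regions and the knockout 80.8%, against 72.7 and 80.4% of all regions.

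Sall3 had the largest share of regions kept by the knockout alone among the 4 members. Of its 19 regions listed in both day 0 libraries, wild type kept 9 at day 5 (47.4%, 24.4 to 71.1) and the knockout 16 (84.2%, 60.4 to 96.6), and 8 were kept by the knockout alone (42.1%, 20.3 to 66.5). Among 15367 genes with at least 10 such regions, 99.2% had a smaller share kept by the knockout alone, and the median gene had 15%. In lists of equal length, 5 of 14 Sall3 regions were so kept (35.7%, 12.8 to 64.9), against 15.1% of all regions, a share inside that interval. Sall3 was singled out for its large share, so neither interval serves as a test against the background. Both shares rest on the wild-type day 5 library.

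These 8 Sall3 regions were spread over the locus. Those in the gene were at 80969280 to 80970139 and 80980810 to 80981701. Beyond the low-coordinate end, 3 lay between Sall3 and Atp9b, at 80936444 to 80937211, 80949217 to 80950223 and 80952407 to 80953404. Beyond the high-coordinate end, 3 were centred 8.09, 18.6 and 23.3 kb from the gene. Sall3 also held the 3 regions that appeared in the wild-type day 5 list and in no other, centred 1.11 and 36.5 kb beyond the high-coordinate end and, inside the gene, at 80967421 to 80968342 near its other end. Between the genotypes at day 5, 10 of 21 knockout peaks and 10 of 14 wild-type peaks at Sall3 overlapped a peak of the other list, where 64.0 and 76.8% did so genome-wide. A region at 80957566 to 80958571 was listed in the knockout on both days and never in wild type.

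At Sall4, 8 of 32 regions were kept by the knockout alone (25%, 11.5 to 43.4), 29 by the knockout in all and 22 by wild type. The interval includes the background of 17.2%, and 82.5% of genes had a smaller share. Of the 8, 3 were neighbours, at 168773475 to 168774459, 168776962 to 168777969 and 168778681 to 168779703, centred 6.77, 10.3 and 12.0 kb beyond the high-coordinate end of the gene. Another lay in the gene, at 168760746 to 168761717, and the other 4 in Atp9a. The opposite case, kept by wild type alone, occurred 1 time, at 168731215 to 168732220 in Atp9a. A region at 168745977 to 168747195, between Atp9a and Sall4, was listed only at day 5 and in both genotypes, as 764 bp (wild type) and 1136 bp (knockout). At day 0, 32 of 34 knockout peaks and 32 of 35 wild-type peaks at Sall4 overlapped a peak of the other list (94.1 and 91.4%), where 75.3 and 84.1% did so genome-wide.

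Sall1 and Sall2 had smaller shares of such regions. At Sall1, 4 of 23 regions were kept by the knockout alone (17.4%, 4.95 to 38.8) and 4 were listed at day 5 in neither genotype, among them 89037341 to 89038254 inside the gene. At Sall2, wild type kept 11 of 13 and the knockout all 13, so 2 were kept by the knockout alone (15.4%, 1.92 to 45.4). One of these, at 52310063 to 52311011, lies just beyond the low-coordinate end of Sall2, between that gene and Mettl3. Per gene, 59.5% of genes had a smaller share than Sall1 and 50.5% a smaller share than Sall2, so both were near the middle.

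Day 0 regions were also counted by their place. In the 4 Sall bodies wild type listed 15 of 20 day 0 regions at day 5 and the knockout 19 of 20, while in the flanks the counts were 42 and 58 of 67. Sall1 did not share the higher count in the body: wild type kept 3 of 5 there, against 5 of 7 beyond the high-coordinate end and 7 of 11 beyond the other. The 20 regions in the bodies are few, and neither a test of body against flank nor the same split over all genes was run.

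**Figure D4:**
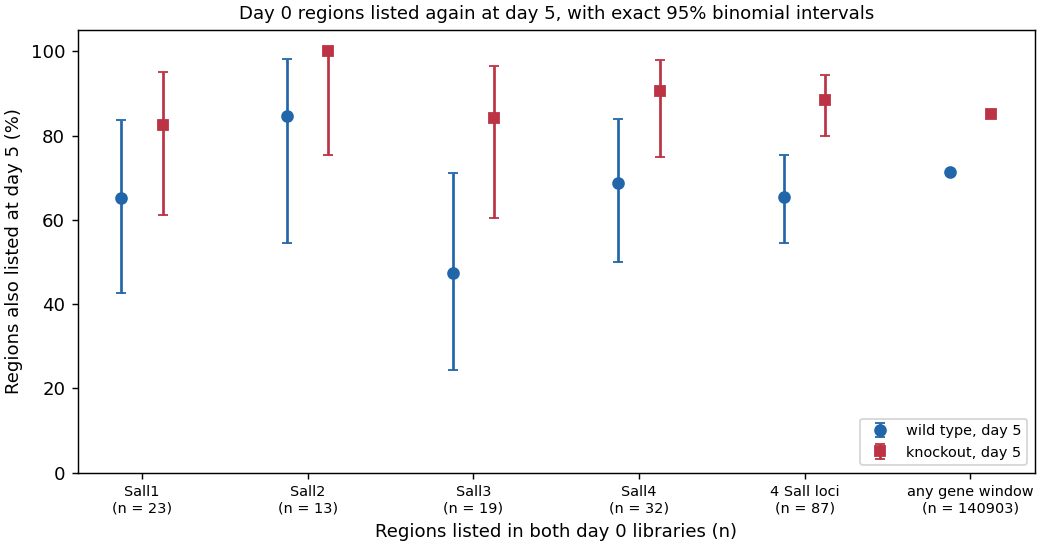
Percent of the regions listed in both day 0 libraries that were also listed at day 5 in wild type (circles) and in the knockout (squares), by Sall locus, for the 4 loci together and for regions within 50 kb of any protein-coding gene. Bars are exact 95% binomial intervals and cover counting error only; wild type is lowest at Sall3, 47.4% against 84.2% in the knockout.

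Lists of genes that work with SALL proteins were read in the same way. In every comparison the loci of all 13 NuRD subunits stayed within 1.5-fold of the median locus, with list medians from -0.08 to 0.02. Over all loci, 2.46 to 10.0% were past the fold in a given direction and comparison. For the knockout against wild type the values at day 0 ran from -0.19 at Chd4, a remodelling ATPase, to 0.33 at Hdac2, a histone deacetylase. At day 5 they ran from -0.33 at Gatad2a to 0.36 at Mbd2, which encodes a reader of methylated DNA. The wild-type time course was lowest at Hdac1 (-0.54) and the knockout time course at Chd3 (-0.33), and both were highest at Mbd3 (0.27 and 0.24). The difference of time courses ran from -0.49 at Gatad2a to 0.34 at Mbd2.

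Among 14 loci listed as pluripotency partners of SALL4, Nr0b1, an X-linked nuclear receptor gene, was past the fold in the knockout at day 0 (0.71) and at day 5 (1.21), and the other 13 were not. With 1 locus of 14 in each case the count was near the share of all loci, 4.60% at day 0 and 7.92% at day 5. Peaks at Nr0b1 covered 2831 and 5367 bp at day 0 and 1464 and 5129 bp at day 5 (wild type, then knockout). The X chromosome as a whole had 4273, 5565, 4112 and 6659 peaks, and its part in the values of X-linked loci was not tested. The lowest values were at Zfp42, a marker of naive stem cells, at day 0 (-0.47) and at Tcf3 at day 5 (-0.19). The list was matched by gene symbol, and Tcf3 is the symbol of the E2A gene. Tcf7l1, the pluripotency factor also called TCF3, was not in the list, so Tcf3 is no partner in this sense. No locus of the list was past the fold in either time course, where values ran from -0.54 (Nr0b1) to 0.45 (Klf4) in wild type and from -0.51 (Klf5) to 0.18 (Tcf3) in the knockout. Of all loci, 10.0% were higher and 6.28% lower past the fold in wild type, and 7.66 and 2.46% in the knockout. The list medians were -0.24 in the wild-type and -0.03 in the knockout time course. For the difference of time courses Klf4 was past the fold in the lower direction (-0.61), as were 8.25% of all loci, and Klf2 was highest at 0.54.

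Kidney and limb regulators that act with SALL1 or SALL4 numbered 13. At day 0 the knockout was past the fold at Gdnf, a growth factor for the ureteric bud (1.05), and at Fgf10, a limb bud signal (0.68), and Hoxa11 was lowest at -0.23. At day 5 it was past the fold at Fgf10 alone, in the lower direction (-0.68), and Tbx5, a forelimb regulator, was highest at 0.36. In the wild-type time course Eya1, a transcriptional co-activator, was past the fold (0.68), and Tbx5 was lowest at -0.20. In that of the knockout Fgf10 was past the fold in the lower direction (-0.89), and Six2, a regulator of nephron progenitors, was highest at 0.26. For the difference of time courses 4 loci were past the fold, all lower: Fgf10 (-1.35), Osr1 (-0.81), Gdnf (-0.74) and Eya1 (-0.64), with Tbx5 highest at 0.32. That is 4 of 13, where 8.25% of all loci were lower past the fold and 9.34% higher. The counts in the other comparisons were 2 higher at day 0 (4.60% of all loci), 1 lower at day 5 (4.23%), 1 higher in the wild-type time course (10.0%) and 1 lower in that of the knockout (2.46%). The list median of the difference was -0.08.

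Neural regulators numbered 14. In the knockout at day 5, against wild type, 13 of them lay below the median locus. Centring leaves as many of all loci below it as above it, and the list was chosen with earlier results of these data known. None of the 14 was past the fold, where 7.92% of all loci were higher and 4.23% lower. The median of the list was -0.26. Neurog2, a proneural factor, was highest at 0.03. At day 0 the list median was -0.04, with Neurog2 lowest (-0.44) and Emx2, a cortical regulator, highest (0.32). In the wild-type time course 10 loci lay above the median locus, from -0.31 at Sox3 to 0.44 at Zic1, with a list median of 0.22. In the knockout time course Sox3, an X-linked gene of neural progenitors, was past the fold in the lower direction (-0.67), and Neurog2 was highest at 0.57. That is 1 of 14, where 2.46% of all loci were lower past the fold. The list median there was -0.0008, with 7 loci above the median locus. For the difference of time courses the list median was -0.06, with 5 loci above the median locus and Neurog2 highest at 0.47. The list medians of -0.26 and 0.22 both rest on the wild-type day 5 library.

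The profile over the 4 libraries was taken as log2 covered bp with library medians and the gene's own mean removed. By it, Sall1, Sall3 and Sall4 were closer to one another than to Sall2. Distances were 0.12 between Sall1 and Sall4, 0.13 between Sall3 and Sall4 and 0.15 between Sall1 and Sall3, and 0.28, 0.41 and 0.33 from Sall2 to Sall1, Sall3 and Sall4. Of 18030 other loci, the nearest were those of Parp14, Fgf23 and Spice1 to Sall1 (0.01 to 0.02), of Cd247, Cdkn2aip and Isl2 to Sall2 (0.01 to 0.03), of Hnrnpu, Tmcc2 and Asb1 to Sall3 (0.02) and of Dhx9, Gm36210 and Lhfpl3 to Sall4 (0.01 to 0.03). Each Sall locus thus had unrelated loci nearer to it than any other member. No distribution over pairs of loci was set beside these distances, which describe 4 libraries only.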

How the data were processed

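Per the file headers, each library's peaks were called on their own with cellranger-arc 2.0.0 against mm10, and the submitters' processing notes also name Scanpy 1.7.2. The authors deposited chromosome, start and end of each peak, without height, score or count.

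Gene positions came from RefSeq (GRCm38.p6; 21887 protein-coding genes), and starts for 79.9% of these from its promoter table. For other genes, the more accessible gene end stood in (covered bp within 1 kb). Covered bp per window were compared as log2 ratios with 500 bp added to each, minus the median over genes. Peak-number ratios and shares have exact 95% intervals (Clopper-Pearson), for counting error alone. Those of the ratios take the peaks of both lists as independent, which shared sites are not. With 1 library per group, nothing was tested between groups. Named from each list were the highest and lowest loci with at least 2000 bp on average, members past the fold, and the 3 nearest profiles to each Sall locus among loci with 5000 bp or more. Some loci named by this rule are not reported here. The members and lists were chosen with earlier results of these data known. Computations used Python 3.11.15, numpy 2.4.6, pandas 2.3.3 and scipy 1.17.1 and were tested on simulated data. Protein sequences and the RNA of the same nuclei were not used here.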

Additional observations from a re-analysis of the deposited data

Results flagged for a closer look

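Some contrasts pointed in opposite directions at the 2 days or in the 2 genotypes, with 1 library each, and none of these differences was tested. At Sall2 the centred log2 time course was -0.06 in wild type and 0.25 in the knockout, and the knockout against wild type was -0.23 at day 0 and 0.08 at day 5, which is the same difference of 0.32 seen from either side. At Sall4 the knockout against wild type was -0.09 at day 0 and 0.20 at day 5, a difference of 0.30. The opposite signs at Sall2 did not hold under every alternative. Without the bases of neighbouring genes the knockout against wild type there was -0.42 at day 0 and -0.15 at day 5, and with lists of equal length -0.42 and -0.08. The wild-type time course was 0.07 by peak numbers and 0.07 with windows of 100 kb, beside 0.28 and 0.30 in the knockout. At Sall4 the opposite signs held under all 11 alternatives, which reuse the same libraries and so are no replicate check. The differences at Sall2 and Sall4 lay above those of 79.8 and 78.9% of genes. Both rest on the wild-type day 5 library.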

How the results depend on the processing

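Each Sall locus value was recomputed under 11 alternatives: windows of 0, 10 or 100 kb, bases of neighbouring genes left out, peak numbers, pseudocounts of 100 and 2000 bp, the widest peaks in equal numbers, and 3 other ways of centring. No member passed 1.5-fold under any of them. The nearest was Sall4 in the difference of time courses, at 0.581 without the bases of neighbouring genes, where the threshold is 0.585. Its main value there was 0.30. Of the 4 member values at day 5 in the knockout against wild type, Sall3 (0.01 to 0.30) and Sall4 (0.14 to 0.36) stayed above 0, while Sall1 (-0.04 to 0.27) and Sall2 (-0.15 to 0.21) did not in all. In the wild-type time course, Sall3 (-0.51 to -0.02) and Sall4 (-0.52 to -0.23) stayed below 0, while Sall1 (-0.53 to 0.06) and Sall2 (-0.23 to 0.07) did not in all. The share of regions listed in all 4 libraries was 53.8% with windows of 10 kb, outside the interval of the main share. No share over all genes for that window is given here, so this is not a result about the Sall loci. In the main windows the share was 65.2% in the Sall gene bodies and 39.2% in their flanks. The shares of day 0 regions kept at day 5, over the 4 loci together, stayed within their intervals under a 50% reciprocal overlap, equal lists and windows of 10 and 100 kb. The start base alone gave a peak at 4 members in each library, and so did a minimum of 250 bp, while lists of equal length left 3 in each day 0 library. No paired analysis was possible because each group held 1 library. For the same reason no library could be left out. Without read depth, a region that is not listed cannot be called closed.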
